A study of Mus musculus with 16 samples.

Results

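Transcriptional regulators of the Six-family and the Eya-family act together, and 9 of their genes were followed here, *Six2*, *Six3*, *Six4*, *Six5*, *Six6*, *Eya1*, *Eya2*, *Eya3* and *Eya4*. They were chosen by name, as genes with a probe set that carries no other gene symbol, and they are 9 of the 19938 such genes on the array. Each of the 9 had 1 probe set, and all 9 passed the filter on low values in every comparison. Other genes of these families are not analysed here.

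Affymetrix Mouse Gene 1.0 ST arrays had been hybridized with RNA of first molars of the mandible (8 samples), first molars of the maxilla (4 samples) and lower incisors (4 samples). All came from embryos of a C57Bl6 genetic background at E14.5, the cap stage, and none carried an experimental treatment. Each sample was RNA from a pool of 4 microdissected tooth germs, so epithelium, mesenchyme and any tissue taken along were measured together. How the pools map to litters or animals is not given in the sources used here, so p-values measure only the spread between these samples.

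Six-family proteins bind DNA through a homeodomain and a neighbouring domain of their own. Eya proteins do not bind DNA themselves; they bind the Six-family proteins, act as their coactivators and carry a phosphatase activity. The network, first worked out in the fly eye, works in the kidney, ear, muscle and craniofacial mesenchyme of the mouse, where Dach and Pax proteins and Groucho co-repressors take part in it.

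*Six2* and *Six3* lie next to each other on chromosome 17 as neighbouring protein-coding genes, and *Six4* lies on chromosome 12. Their promoter windows are printed because expression of *Six2* and *Six4* differed between tooth types, whereas no difference in *Six3* passed the test. RefSeq windows of 300 bases (build GRCm38.p6, 250 bases before and 50 after a transcript's start) were found for 7 of the 9 genes, and *Eya1* and *Eya2* were not matched. The sequences run 5′ to 3′ on the strand of the gene, from chr17:85688205-85688504 on the minus strand for *Six2*, chr17:85620584-85620883 on the plus strand for *Six3* and chr12:73113196-73113495 on the minus strand for *Six4*, which had 2 windows, of which the one with a MEF3 core is shown. Capitals mark the CCAAT box (CCAAT, or ATTGG on the other strand) and the core of the MEF3 site, which Six-family proteins bind (TCAGGTT, or AACCTGA on the other strand).
Six2: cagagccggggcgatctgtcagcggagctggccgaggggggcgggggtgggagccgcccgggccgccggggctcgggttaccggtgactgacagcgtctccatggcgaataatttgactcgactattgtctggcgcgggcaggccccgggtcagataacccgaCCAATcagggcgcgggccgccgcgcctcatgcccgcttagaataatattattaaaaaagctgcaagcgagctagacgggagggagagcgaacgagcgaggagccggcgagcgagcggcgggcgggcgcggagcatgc
Six3: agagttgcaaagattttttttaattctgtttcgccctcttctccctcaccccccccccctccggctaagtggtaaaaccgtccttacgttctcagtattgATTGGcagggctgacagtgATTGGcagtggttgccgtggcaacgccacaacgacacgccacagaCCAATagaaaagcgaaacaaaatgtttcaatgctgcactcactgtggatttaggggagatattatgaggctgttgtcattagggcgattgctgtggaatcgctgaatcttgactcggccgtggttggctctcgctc
Six4: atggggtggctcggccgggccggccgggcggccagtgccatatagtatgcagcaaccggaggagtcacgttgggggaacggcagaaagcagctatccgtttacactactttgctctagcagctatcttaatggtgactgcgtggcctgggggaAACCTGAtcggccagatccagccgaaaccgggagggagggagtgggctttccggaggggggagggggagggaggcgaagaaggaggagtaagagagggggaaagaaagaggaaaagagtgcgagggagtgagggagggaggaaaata
The window of *Six2* held 1 CCAAT box, at position -87 from the transcript's start, and no MEF3 core. That of *Six3* held 3 CCAAT boxes, at -150, -131 and -86. The *Six4* window shown held a MEF3 core at -97 on the opposite strand. Its other window, chr12:73113376-73113675, held no MEF3 core but had a CCAAT box at -73. *Six6* had a MEF3 core at -157 in its own window. The MEF3 core was thus in windows of 2 of the 7 matched genes, where 4.07% of all 32851 promoter windows held it. CCAAT was in windows of 4 of the 7, where 37.4% of all windows held it. Members were counted by gene and the background by window. Since *Six4* and *Eya4* had 2 windows each, these shares are not in like units. The 2 motifs share no letters in any of these windows. G and C made up 67.3% of the *Six2* window, 50% of the *Six3* window and 60% of the *Six4* window shown, against a median of 52.7% over all windows. A match describes letters only, and binding was not measured.

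Values are deposited RMA signals on the log2 scale, and a difference is the mean of the group named first minus that of the group named second. A gene passed a comparison at an adjusted p under 0.1 (limma, Benjamini-Hochberg over all probe sets kept) with a fold change above 1.2. Signals of different genes come from different probes and were not set against each other. In bulk samples, fewer cells of a type and less RNA per cell cannot be told apart.

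The samples did not split by tooth type alone. Median correlations across probe sets, which are not independent, were 0.9942 between mandibular molars 5 to 8 and maxillary molars, 0.9898 between mandibular molars 5 to 8 and 1 to 4, and 0.9902 between mandibular molars 1 to 4 and incisors. Mandibular molars 1 to 4 with the incisors are called the first sample set here and mandibular molars 5 to 8 with the maxillary molars the second; the labels name no such sets. Results are therefore also given within a set. The study's text says that 1 incisor sample was discarded for a technical problem in hybridization, with high background, without naming it. All 4 were therefore used, and the incisor values may include that array.

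*Six2*, a homeobox gene that keeps nephron progenitors undifferentiated in the kidney and is expressed in craniofacial mesenchyme, had the largest differences of the 9 genes between tooth types. In mandibular molars its signal was 10.19 at the lowest, 10.60 at the median and 10.83 at the highest. In maxillary molars 1 to 4 it was 11.46, 11.26, 11.44 and 11.34, and in lower incisors 1 to 4 it was 8.65, 8.08, 7.88 and 9.13. The 3 tooth types did not overlap, with maxillary molars above mandibular molars and both above the incisors.

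Mandibular molars averaged 10.56 ± 0.22 for *Six2* (SD, n = 8), and the incisors averaged 8.43 ± 0.56 (SD, n = 4). The log2 difference was 2.13 (standard error 0.20, 95% interval 1.70 to 2.56), a fold change of 4.38 with an adjusted p of 5.75e-05 (limma). By size this difference held rank 21 among 29258 probe sets. Within the first sample set it was 2.03 (adjusted p = 0.00845, limma), and with mandibular molars 5 to 8 in their place 2.23 (adjusted p = 0.00154, limma). The incisors spread widely, since incisors 1 and 4 were higher than incisors 2 and 3 by more than the whole range of the maxillary molars.

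Between the molars, the *Six2* means were 10.56 ± 0.22 for the mandibular (SD, n = 8) and 11.37 ± 0.09 for the maxillary ones (SD, n = 4). The log2 difference was -0.81 (standard error 0.11, 95% interval -1.05 to -0.57), a fold change of 1.75 with an adjusted p of 0.00277 (limma), at rank 165 of 29068 probe sets by size. Within the second sample set it was -0.71 (adjusted p = 0.025, limma). With the sample set as a block and all 3 tooth types in 1 fit it was also -0.71 but did not pass (adjusted p = 0.217, limma).

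**Figure D1:**
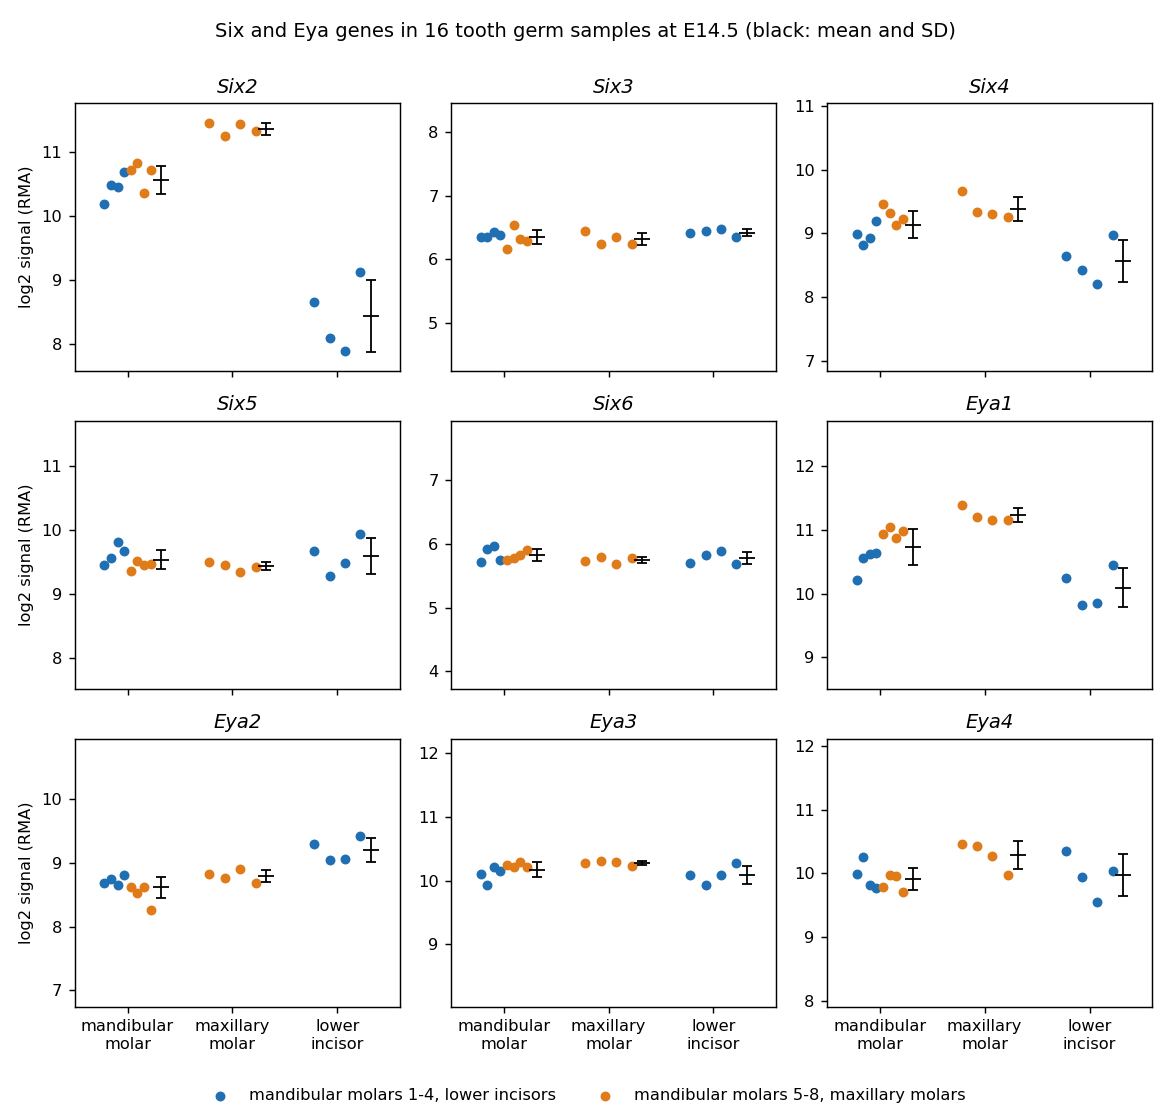
Deposited log2 signal (RMA, y axis) of the 9 genes in mandibular molars, maxillary molars and lower incisors (x axis), with 1 point per sample and black bars for mean and SD. *Six2* lies between 10.19 and 10.83 in mandibular molars, between 11.26 and 11.46 in maxillary molars and between 7.88 and 9.13 in incisors, and panels share a span but not a position on the y axis.

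*Six4*, which acts in muscle, kidney and sensory ganglia, followed the order of *Six2* less sharply. In mandibular molars its signal was 8.82 at the lowest, 9.16 at the median and 9.46 at the highest. Maxillary molars 1 to 4 had 9.67, 9.33, 9.31 and 9.25, and lower incisors 1 to 4 had 8.65, 8.42, 8.21 and 8.98. Incisor 4 reached into the range of the mandibular molars, and the ranges of both kinds of molars overlapped.

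The mean of *Six4* was 9.13 ± 0.21 in mandibular molars (SD, n = 8), against 8.56 ± 0.33 in incisors (SD, n = 4), a log2 difference of 0.57 (standard error 0.14, fold change 1.48, adjusted p = 0.0511, limma). This call was lost within the first sample set, where the difference was 0.42 (adjusted p = 0.468, limma). It was also lost without incisor 1, 2 or 3 (differences 0.60, 0.52 and 0.45, adjusted p = 0.107, 0.159 and 0.189, limma). Without incisor 4 the call was kept (0.71, adjusted p = 0.0157, limma). It was kept as well with incisors 2 and 3 alone, chosen after seeing the data (0.82, adjusted p = 0.0255, limma). Between mandibular and maxillary molars the difference was -0.25 (95% interval -0.51 to 0.00, adjusted p = 0.297, limma) and did not pass.

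*Eya1*, needed for the ear, kidney and thymus in the mouse and mutated in the human branchio-oto-renal syndrome, had a signal in mandibular molars of 10.21 at the lowest, 10.75 at the median and 11.04 at the highest. In maxillary molars 1 to 4 it was 11.39, 11.21, 11.16 and 11.15, and in lower incisors 1 to 4 it was 10.24, 9.82, 9.86 and 10.45. Every maxillary molar lay above every mandibular molar, whereas mandibular molar 1 lay below incisors 1 and 4.

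*Eya1* averaged 10.73 ± 0.28 in mandibular molars (SD, n = 8), against 10.09 ± 0.31 in incisors (SD, n = 4), a log2 difference of 0.64 (standard error 0.16, fold change 1.55, adjusted p = 0.0515, limma). As with *Six4*, the call was lost within the first sample set (0.41, adjusted p = 0.48, limma), and it was lost without incisor 2 or 3 (differences 0.54 and 0.56, adjusted p = 0.169 and 0.185, limma). Without incisor 1 or 4 the call was kept (differences 0.69 and 0.76, adjusted p = 0.0942 and 0.0302, limma). It was kept as well with incisors 2 and 3 alone, chosen after seeing the data (0.89, adjusted p = 0.0418, limma). Mandibular molars minus maxillary molars gave -0.50 (standard error 0.14), which missed the threshold (adjusted p = 0.109, limma) although the groups did not overlap. It passed without mandibular molar 1, 6 or 8 (adjusted p = 0.0911, 0.0791 and 0.09, limma), and within the second sample set it was -0.27 (adjusted p = 0.136, limma).

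*Eya1* was also the only gene of the 9 that passed between mandibular molars 1 to 4 and 5 to 8, a split of 1 tooth type with no label behind it. Samples 1 to 4 had 10.21, 10.56, 10.62 and 10.63, and samples 5 to 8 had 10.94, 11.04, 10.87 and 10.98. The log2 difference was -0.45 (adjusted p = 0.0317, limma), so that the spread of *Eya1* inside the mandibular molars followed the sample set. In the same comparison 4.49% of 28936 probe sets passed as higher in samples 1 to 4 and 7.29% as lower. *Eya2*, higher in samples 1 to 4 (0.22, adjusted p = 0.151, limma), and *Eya3*, lower there (-0.15, adjusted p = 0.217, limma), did not pass. Their values in samples 1 to 4 and 5 to 8 did not overlap either. The share of all probe sets without overlap was not computed for this split, so whether this is unusual cannot be said.

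*Eya2*, a coactivator of the same family with roles in muscle precursors and cranial placodes, ran the other way. In mandibular molars its signal was 8.27 at the lowest, 8.64 at the median and 8.82 at the highest. Maxillary molars 1 to 4 had 8.83, 8.76, 8.91 and 8.69, and lower incisors 1 to 4 had 9.30, 9.05, 9.06 and 9.42. All 4 incisors were above all 12 molar samples, and the molars overlapped each other.

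In mandibular molars *Eya2* averaged 8.62 ± 0.17 (SD, n = 8), against 9.21 ± 0.19 (SD, n = 4) in incisors. The log2 difference was -0.59 (standard error 0.10, 95% interval -0.81 to -0.37, fold change 1.51), with an adjusted p of 0.00545 (limma). It was -0.48 within the first sample set (adjusted p = 0.069, limma) and passed with each sample left out in turn. Between mandibular and maxillary molars the difference was -0.18 (95% interval -0.37 to 0.01, adjusted p = 0.315, limma).

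The mean of cartilage markers, like *Eya2*, was higher in every incisor than in every molar sample, and the markers are given beside it. Of the 5 markers (*Acan*, *Col2a1*, *Col9a1*, *Matn1* and *Sox9*), 4 were lower in mandibular molars than in incisors and 1 did not pass. Their mean log2 signal was 7.22 to 7.43 in mandibular molars, 7.16 to 7.31 in maxillary molars and, in incisors 1 to 4, 8.84, 7.49, 7.85 and 8.94. Their summed linear signal was 1161 to 1577 in mandibular molars, 1374 to 1543 in maxillary molars and 1316 to 3286 in incisors. None was under a log2 signal of 5 in all samples of a group. Between the molars the direction was not shared. Mandibular molars minus maxillary molars gave a median of 0.08 for the cartilage markers and -0.18 for *Eya2*, and none of these genes passed. Incisors 1 and 4, highest in these markers, were also the highest incisors for *Eya2*, as they were for *Six2*, *Six4*, *Six5*, *Eya1* and *Eya4*. With incisors 2 and 3 alone, chosen after seeing the data, the difference in *Eya2* between mandibular molars and incisors was -0.44 (adjusted p = 0.0874, limma), and both of these incisors also had cartilage means above those of all mandibular molars. Between maxillary molars and incisors 4 of the 5 cartilage markers were lower as well. There *Eya2* with incisors 2 and 3 alone missed only the threshold for size (-0.26, a fold change under 1.2, adjusted p = 0.0414, limma). The part of cartilage in these results was not tested.

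**Figure D2:**
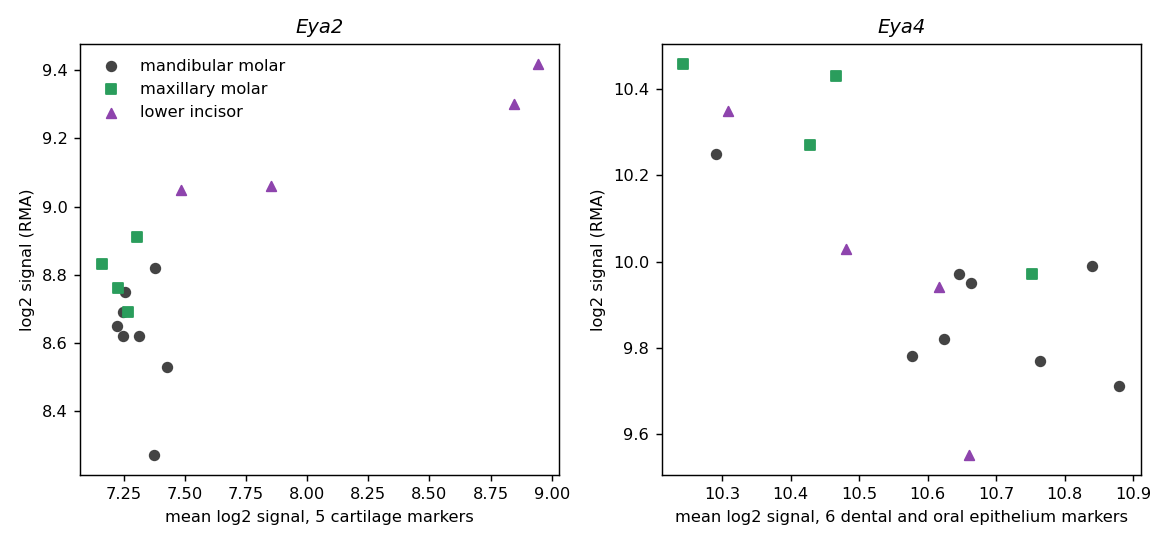
Log2 signal (RMA, y axis) of *Eya2* against the mean of 5 cartilage markers and of *Eya4* against the mean of 6 markers of dental and oral epithelium (x axes, log2), with 1 point per sample. Incisors 1 and 4 stand at 8.84 and 8.94 on the cartilage axis with *Eya2* at 9.30 and 9.42, and *Eya4* is lowest, at 9.55, in an incisor with an epithelial mean of 10.66.

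*Eya4*, linked to deafness and cardiomyopathy in humans, had its highest values in maxillary molars but did not pass. Mandibular molars had 9.71 at the lowest, 9.89 at the median and 10.25 at the highest. Maxillary molars 1 to 4 had 10.46, 10.43, 10.27 and 9.97, and incisors 1 to 4 had 10.35, 9.94, 9.55 and 10.03. Maxillary molar 4 fell inside the mandibular range, and the incisors spanned most of the range of both kinds of molars.

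Mandibular molars minus maxillary molars gave -0.38 for *Eya4* (standard error 0.11, adjusted p = 0.13, limma), and the difference passed without mandibular molar 2 (-0.43, adjusted p = 0.0536, limma) or without maxillary molar 4 (-0.48, adjusted p = 0.064, limma). These samples also stood apart in epithelial markers (*Krt5*, *Krt14*, *Krt15*, *Epcam*, *Cdh1* and *Trp63*). Their mean log2 signal was 10.29 in mandibular molar 2, the lowest of its group, and 10.75 in maxillary molar 4, the highest of its group. Over all samples it was 10.29 to 10.88 in mandibular molars, 10.24 to 10.75 in maxillary molars and 10.31 to 10.66 in incisors, and the summed linear signal was 9679 to 14515, 9519 to 13123 and 10313 to 12974. None of the 6 was under 5 in all samples of a group. The part of epithelial content in *Eya4* was not tested.

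The remaining members did not pass in any comparison of tooth types. *Eya3*, a broadly expressed member of its family, averaged 10.17 ± 0.11 in mandibular molars (SD, n = 8), 10.28 ± 0.04 in maxillary molars and 10.09 ± 0.14 in incisors (SD, n = 4 each). *Six5*, which lies beside the repeat expanded in human myotonic dystrophy, averaged 9.54 ± 0.14 (SD, n = 8), 9.43 ± 0.06 and 9.60 ± 0.28 (SD, n = 4 each) in the same order. Incisor 4 had the highest signal of all 16 samples for *Six5*, at 9.94.

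*Six3* and *Six6*, regulators of forebrain and eye development, varied little. *Six3* was 6.36 ± 0.11 in mandibular molars (SD, n = 8), 6.32 ± 0.10 in maxillary molars and 6.42 ± 0.06 in incisors (SD, n = 4 each). *Six6* was 5.82 ± 0.10 (SD, n = 8), 5.75 ± 0.05 and 5.78 ± 0.10 (SD, n = 4 each) in that order. The 95% intervals of mandibular molars minus incisors were -0.21 to 0.08 for *Six3* and -0.09 to 0.19 for *Six6*. The deposited values carry no detection call, so whether such signals lie above background was not tested. *Six3* thus kept overlapping ranges in all 3 tooth types beside its neighbour *Six2*, whose ranges were apart.

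As a group, 3 of the 9 genes were higher in mandibular molars than in incisors (*Six2*, *Six4* and *Eya1*), 1 was lower (*Eya2*) and 5 did not pass. The background in this comparison was 2.75% of 29258 probe sets higher and 2.18% lower. The groups did not overlap for 1 gene higher (*Six2*) and 1 lower (*Eya2*), against 1.92% and 1.77% of all probe sets. The median difference of the 9 genes was 0.05, beside -0.02 over all probe sets.

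Between mandibular and maxillary molars 1 of the 9 was lower in mandibular molars (*Six2*), 0 were higher and 8 did not pass (limma). At an unadjusted p under 0.05 there were 3, *Six2*, *Eya1* and *Eya4*, each with the lower mean in mandibular molars, and the methods' t-test also passed *Six2* alone. Of 29068 probe sets 1.01% passed as higher and 1.18% as lower. The groups did not overlap for *Six2* and *Eya1*, both lower in mandibular molars, where 2.02% of all probe sets were lower and 2.08% higher without overlap. The median of the 9 was -0.18, beside 0.02 over all probe sets.

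Maxillary molars and incisors came from different sample sets, so tooth type, jaw and sample set cannot be told apart in this comparison, and it shares its samples with the other comparisons. *Six2* was higher in maxillary molars by 2.94 (standard error 0.24, fold change 7.67, adjusted p = 0.000193, limma), *Eya1* by 1.13 (fold change 2.19, adjusted p = 0.00128, limma) and *Six4* by 0.82 (fold change 1.77, adjusted p = 0.00921, limma). *Eya2* was lower (difference -0.41, fold change 1.33, adjusted p = 0.0177, limma). *Eya3* had an adjusted p of 0.096 (limma) at a fold change of 1.14, under the threshold for size.

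All 4 genes that passed between maxillary molars and incisors had groups that did not overlap. The background was wide here, with 14.4% of 29075 probe sets higher and 13.4% lower by the test, and 15.9% and 16.5% higher and lower without overlap. With the sample set as a block in a fit of all 3 tooth types, *Six2* (2.74, adjusted p = 9.31e-05, limma) and *Eya1* (0.68, adjusted p = 0.0777, limma) passed, while *Six4* (0.52, adjusted p = 0.298, limma) and *Eya2* (-0.19, adjusted p = 0.632, limma) did not.

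**Figure D3:**
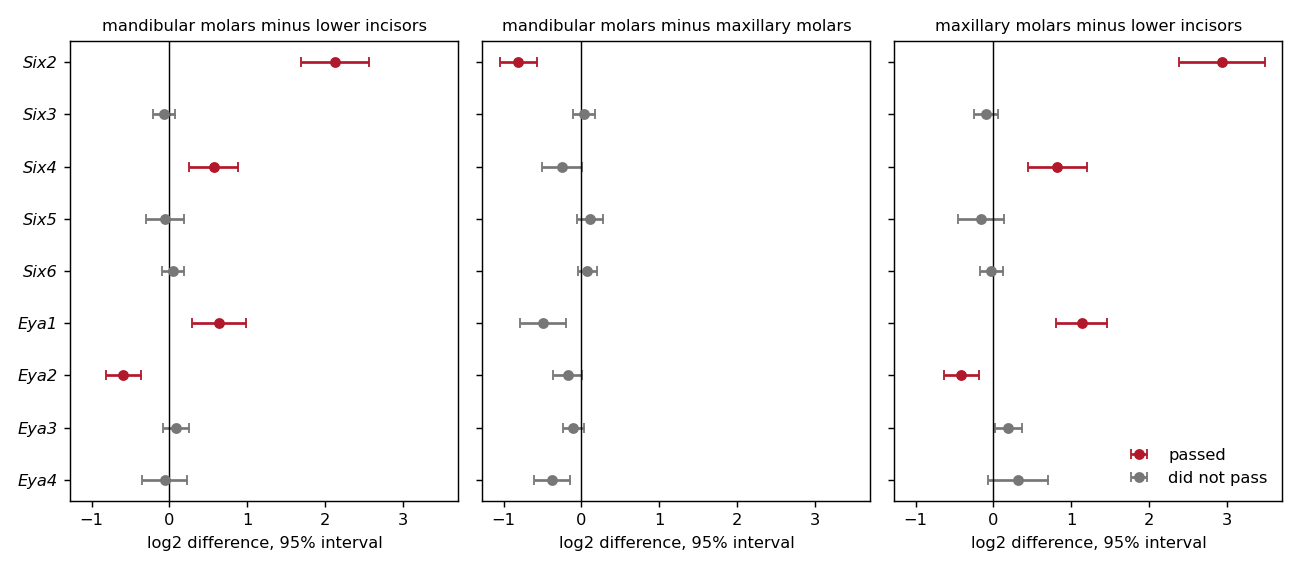
Log2 differences (x axis) of the 9 genes (rows) with their 95% intervals in the 3 comparisons of tooth types, red where the gene passed and grey where it did not. *Six2* is at 2.13, -0.81 and 2.94, *Eya2* at -0.59, -0.18 and -0.41, and *Six3*, *Six5* and *Six6* are grey in every panel.

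The differences were also computed with either set of 4 mandibular molars. With mandibular molars 5 to 8 against incisors, *Six4* was higher by 0.72 and *Eya1* by 0.86 (adjusted p = 0.0172 and 0.00583, limma), while molars 1 to 4 gave 0.42 and 0.41. With molars 1 to 4 against maxillary molars, *Six4* gave -0.40 and *Eya1* -0.72 (adjusted p = 0.0433 and 0.0047, limma), while molars 5 to 8 gave -0.10 and -0.27. For *Six2* the corresponding values were 2.23 and 2.03 against incisors, and -0.91 and -0.71 against maxillary molars. The difference between these differences is that between mandibular molars 1 to 4 and 5 to 8, which passed for *Eya1* (adjusted p = 0.0317, limma) and not for *Six4* (-0.30, adjusted p = 0.102, limma) or *Six2* (-0.20, adjusted p = 0.355, limma).

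**Figure D4:**
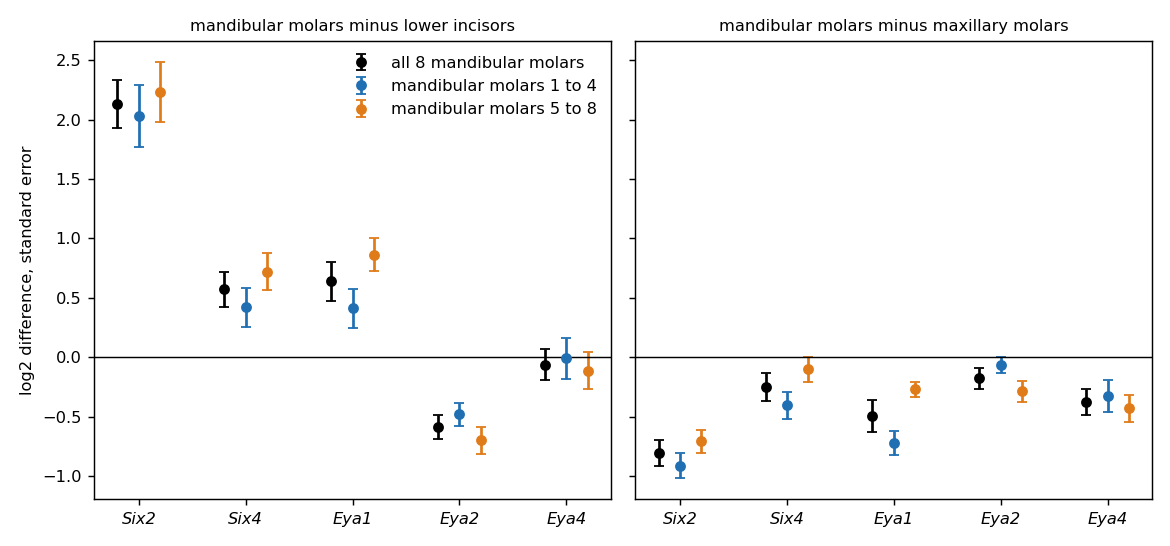
Log2 difference with standard error (y axis) of 5 genes (x axis) from all 8 mandibular molars (black), from mandibular molars 1 to 4 (blue) and from 5 to 8 (orange), against incisors on the left and maxillary molars on the right. *Six2* stays at 2.03 to 2.23 and at -0.91 to -0.71, whereas *Eya1* ranges from 0.41 to 0.86 and from -0.72 to -0.27.

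Skeletal muscle markers differed between tooth types too, and several members of both families are active in muscle precursors. Of 11 markers, 5 were lower in mandibular molars than in incisors and 9 were higher in mandibular than in maxillary molars. Their summed linear signal was 2518 to 7119 in mandibular molars, 1344 to 2164 in maxillary molars and 6195 to 7447 in incisors, and none was under a log2 signal of 5 in all samples of a group. All 11 were lower in maxillary molars than in incisors. This order is the reverse of that of the means of *Six2*, *Six4* and *Eya1*. Mandibular molar 2, with the highest muscle signal of its group, had 10.49 for *Six2*, 8.82 for *Six4*, its group's lowest, and 10.56 for *Eya1*. Incisor 4, with the highest muscle signal of the incisors, also had their highest *Six2* (9.13), *Six4* (8.98) and *Eya1* (10.45). The reverse order of the means thus did not hold inside the incisors. Of 6 neuronal markers, 1 was higher and 1 lower in mandibular molars than in incisors and 2 were higher in mandibular than in maxillary molars; their summed linear signal was 719 to 1253 in mandibular molars, 607 to 727 in maxillary molars and 1011 to 1596 in incisors. The part of muscle or nerve in the results was not tested.

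Markers of the labelled tissue were present in every group. Of 6 mesenchymal markers (*Vim*, *Twist1*, *Prrx1*, *Msx1*, *Pax9* and *Col1a2*), 1 passed between mandibular molars and incisors, which was *Pax9*, and *Pax9* was also the only one to pass between both kinds of molars. None of the 6 epithelial markers passed in these comparisons (limma), where 1 and 3 of them had an unadjusted p under 0.05, each with the higher mean in mandibular molars, and 0 passed by the methods' t-test. Between maxillary molars and incisors, 2 epithelial markers were higher (*Epcam* and *Cdh1*) and 1 lower (*Krt15*) in maxillary molars, 2 mesenchymal markers were higher (*Msx1* and *Pax9*) and 1 lower (*Twist1*), and 3 neuronal markers were lower. The summed linear signal of the mesenchymal markers was 17674 to 19397 in mandibular molars, 17829 to 18990.3 in maxillary molars and 17277 to 18749 in incisors.

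Among 10 partner genes (Dach genes, Pax genes and *Sobp*), 2 were higher and 1 was lower in mandibular molars than in incisors, with a median of -0.14. Of all probe sets, 2.75% passed as higher and 2.18% as lower there. *Dach1*, a corepressor that joins Six-family and Eya proteins, averaged 9.18 in mandibular molars and 8.00 in incisors, a difference of 1.18 (standard error 0.08, adjusted p = 5.03e-06, limma). *Pax9*, a regulator of dental mesenchyme without which mouse teeth arrest at the bud stage, averaged 10.83 in mandibular molars and 9.70 in incisors, a difference of 1.14 (adjusted p = 0.000155, limma). *Pax3*, a neural crest and muscle precursor gene, was the lower one, at 6.65 in mandibular molars and 10.31 in incisors (-3.66, adjusted p = 7.98e-06, limma).

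Between mandibular and maxillary molars the partners *Dach1* (0.37, adjusted p = 0.0384, limma), *Pax9* (0.37, adjusted p = 0.0157, limma) and *Pax1* (0.44, adjusted p = 0.0702, limma) were higher in mandibular molars, and 7 of 10 did not pass (median 0.23). *Dach1* and *Pax9* therefore stood highest in mandibular molars, at 9.18 and 10.83, with 8.81 and 10.47 in maxillary molars, whereas *Six2* stood highest in maxillary molars. Between maxillary molars and incisors 3 partners were higher, *Dach1* (0.81), *Pax9* (0.77) and *Sobp* (0.47). In the same comparison 3 were lower, among them *Pax3* (-4.17) and *Pax7* (-0.74), a gene of muscle precursors and neural crest. The median was -0.21. Of all probe sets, 1.01% passed as higher and 1.18% as lower between the molars, and 14.4% and 13.4% between maxillary molars and incisors. The same shares stand beside the counts of the other lists and of the cell type markers.

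Of 6 genes of the Groucho family (*Tle1* to *Tle6*), none passed between mandibular molars and incisors or between both kinds of molars (limma). There 2 and 1 had an unadjusted p under 0.05, and none passed by the methods' t-test. The medians were 0.11 and -0.07. *Tle4* was higher in maxillary molars than in incisors, by 0.41 (adjusted p = 0.00771, limma). It was 1 of 6, where 14.4% of all probe sets passed as higher.

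Of 9 genes known downstream of these families in kidney, muscle or cell lines, 2 were lower in mandibular molars than in incisors and 7 did not pass, with a median of -0.02. *Slc12a2*, a sodium, potassium and chloride cotransporter, averaged 10.17 in mandibular molars and 10.62 in incisors (-0.45, adjusted p = 0.00669, limma). *Gdnf*, a growth factor that draws the ureteric bud into the kidney mesenchyme, averaged 7.25 in mandibular molars and 7.58 in incisors (-0.33, adjusted p = 0.0264, limma). None passed between mandibular and maxillary molars (limma; median 0.17; 5 at an unadjusted p under 0.05, of which 4 were higher, and none by the methods' t-test). Between maxillary molars and incisors 3 were lower, *Gdnf* (-0.56), *Slc12a2* (-0.39) and *Myog* (-1.73), the last a myogenic factor that is also among the muscle markers.

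The genes whose profile over the 16 samples was most like that of a member were found among 17319 genes by Pearson's r, given as a description since the samples share tooth type and sample set. A likeness of their group means to those of the member largely follows from this choice. For *Six2* the nearest genes were *Dlx1*, *Gria1* and *Tmem30b* (r = 0.97 each). *Dlx1*, a homeobox gene of the jaw mesenchyme, averaged 9.96 in mandibular molars, 10.34 in maxillary molars and 8.56 in incisors, so it had the same order of means as *Six2*. *Gria1*, a glutamate receptor subunit, averaged 8.47, 9.43 and 6.72 in mandibular molars, maxillary molars and incisors.

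For *Six4* the nearest genes were *Smurf2*, *Msrb3* and *Kirrel* (r = 0.97), and for *Eya1* they were *Gnao1*, *Nhs* and *Fam78b* (r = 0.98, 0.97 and 0.97). *Gnao1*, a G protein subunit, had an r of 0.98 with *Eya1* over the 8 mandibular molars alone, where tooth type does not vary but the sample set does. These 8 were among the samples by which *Gnao1* was picked, so this r is no separate support. For *Eya2* the nearest genes were *Dio2*, *Cyth3* and *Klhl5* (r = 0.93, 0.92 and 0.92). *Dio2*, which activates thyroid hormone, averaged 6.02 in mandibular molars, 6.13 in maxillary molars and 6.66 in incisors, so that like *Eya2* it had its highest mean in the incisors.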

How the data were processed

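RNA from pools of 4 tooth germs was hybridized to 1 array per sample. The deposited values were log2 signals, which the authors had computed by RMA with Affymetrix Expression Console 1.1 (background correction, quantile normalization and median polish), and these were used without further normalization. Array medians were 6.80 to 6.99, and 76.1% to 79.2% of the 35556 probe sets lay above 5. An array has no read depth, so the number of samples limits precision. A single gene symbol was attached to 21789 probe sets, several to 1621 and no symbol to 12146, and symbols were updated through RefSeq. A gene with several single-symbol probe sets was given by that with the highest mean.

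For each comparison, probe sets above 5 in at least 1 compared sample were kept, and limma 3.58.1 (R 4.3.3) was fitted to the compared samples alone with lmFit and eBayes, without a block. The threshold was an adjusted p under 0.1 and a fold change above 1.2, that of the study for gene families. The procedure was tested on simulated data. Named genes are the 9 members, up to 4 genes of each list that passed in a comparison (those with the largest differences), the 3 genes most like each member that passed, and the markers. *Sobp* is named besides, as the partner that is neither a Dach nor a Pax gene. The members, lists and tests were chosen with earlier results of these data known. The sample sets were seen in the values. Each member had 1 probe set, so no rule over several probe sets applied.

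The alternatives were no filter or a filter above 6, a floor at 5, quantile and cyclic loess normalization, the methods' t-test (Student, named in a figure legend of the study), trend with robust variances, array weights, all 3 groups in 1 fit, a replicate block, the sample set as a block, mandibular molars 1 to 4 or 5 to 8 only, and each sample left out. The use of incisors 2 and 3 alone was added after seeing the data. Promoter windows are those of RefSeq and were searched on both strands.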

Additional observations from a re-analysis of the deposited data

How the results depend on the processing

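The 4 calls between mandibular molars and incisors, the call of *Six2* between the molars and the 4 calls between maxillary molars and incisors kept their direction under every alternative run. *Six2* passed in all of them except between the molars with the sample set as a block. Between mandibular molars and incisors, 1441 probe sets and 4 of the 9 genes passed. These were 4924 probe sets with array weights, 539 probe sets and 2 genes with the replicate block, 518 and 2 with mandibular molars 1 to 4 only, 2 genes with the sample set as a block and 6050 probe sets with molars 5 to 8 only. Leaving out 1 sample gave 900 to 2304 probe sets and 2 to 4 genes. Between mandibular and maxillary molars, 635 probe sets and 1 gene passed. These were 2 genes with the filter above 6 (*Eya1* added), 3 with array weights, 5832 probe sets and 4 genes with the replicate block, 279 and 0 with the sample set as a block, 5533 and 3 with molars 1 to 4 only, and 368 probe sets with molars 5 to 8 only. Leaving out 1 sample gave 266 to 841 probe sets and 1 to 2 genes. Between maxillary molars and incisors, 8090 probe sets and 4 genes passed, against 891 and 2 with the sample set as a block, and 6757 to 10344 and 4 to 5 with 1 sample left out. With incisors 2 and 3 alone, *Eya2* (-0.26, adjusted p = 0.0414, limma) missed the fold change threshold in that comparison while *Eya3* (0.28) and *Eya4* (0.54) passed. The causes were not tested.

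The replicate block fits only molars whose number a sample of the other group shares, so its differences are those of mandibular molars 1 to 4. Whether replicate numbers pair the samples cannot be settled from 4 numbers per comparison. Deviations of same-numbered samples correlated at 0.09 to 0.65, 0.01 to 0.37 and -0.06 to 0.23 in the 3 comparisons. In the same order, 2, 1 and 1 of 4 numbers correlated best with their own.

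Only differences of genes that did not pass changed sign. For mandibular molars minus incisors *Six5* was 0.0311 with the replicate block, the sample set as a block or molars 1 to 4 only and 0.157 with incisors 2 and 3 alone, which also gave 0.16 for *Eya4* and -0.0342 for *Six6*. With 1 sample left out, *Six5* ranged from -0.162 to 0.0581, above 0 only without incisor 4, and *Eya4* ranged from -0.202 to 0.0657, above 0 only without incisor 1. For mandibular minus maxillary molars *Six3* was -0.00601 with quantile normalization and -0.0271 with cyclic loess. For maxillary molars minus incisors *Six6* was 0.0699 with quantile normalization and 0.104 with cyclic loess, and ranged from -0.0578 to 0.012 with 1 sample left out, above 0 only without incisor 3. There *Six3* was 0.0246 with cyclic loess, and *Six5* was 0.0142 with the sample set as a block and 0.0517 with incisors 2 and 3 alone.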
